A study of Drosophila melanogaster with 6 samples.

Results

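The nuclear pore complex genes of Drosophila were followed in S2 cells treated with protocatechuic aldehyde (PA). The genes were taken by name from the annotation of the array: every gene whose current symbol is Nup followed by a number, and in addition mbo, Megator, Gp210, Ndc1, Sec13 and Elys by symbol or synonym. This gave 27 genes, of which 25 had a probe set assigned to exactly 1 gene, among 11983 genes measured in this way. Gp210, a membrane protein of the pore, and Nup58, a protein of its central channel, had no such probe set and were not analysed here. Megator, whose current symbol is Mgtor, shares the synonym Mtor with the kinase mTor, and the kinase was left out. Each of the 25 genes had 1 probe set only, so no choice among probe sets entered their values.

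The nuclear pore is a large protein channel that spans both membranes of the nuclear envelope and carries all regulated traffic between nucleus and cytoplasm. Its scaffold is built of an outer ring, the Y complex, which lies on the nuclear and cytoplasmic faces, and an inner ring at the level of the membrane. Proteins rich in phenylalanine-glycine repeats fill the channel and bind the transport receptors, filaments extend into the cytoplasm, and a basket extends into the nucleus. In Drosophila some of these proteins, Nup98 among them, are also known to bind chromatin at active genes away from the pore.

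The study compared S2 cells given 0.1 mM PA, a plant phenol, for 2 h with cells given vehicle, to find which transcripts responded to the compound. There were 3 arrays per group (PA 1 to 3 and vehicle 1 to 3), each a GeneChip Drosophila Genome 2.0 array hybridized after processing of the isolated RNA. Values were given as MAS5 signals on a linear scale. S2 is an established line derived from Drosophila embryos, with features of blood cells, and both groups were grown in Schneider's medium containing insulin and fetal bovine serum. The labels do not say whether the 3 samples of a group came from separate cultures, so the p-values reflect variation among the 3 samples of a group, part or all of which may be technical.

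The arrays had been scaled alike, with a mean signal of 500 after trimming and medians of 20.9 to 25. Their shapes differed between the groups, however. Signals at the 75th percentile were lower with PA (492 to 495, against 515 to 534 with vehicle), and those at the 99th percentile were higher (11764 to 11913, against 10897 to 11239). All 10 hemocyte markers examined were measured, with mean vehicle signals of 147 to 11406 and a sum of 45436 to 47394 per vehicle array and 47062 to 50351 per PA array. Of the hemocyte markers 3 were higher (SPARC, NimC1 and Hml, by 0.17, 0.15 and 0.14 on the log2 scale) and 1, srp, was lower (-0.15). The 4 called markers were among the brightest 10% of genes, of which 17.4% were called higher and 3.59% lower. Of 12 markers of other Drosophila tissues 9 were measured, at vehicle signals of 1.79 to 183, with a sum of 385 to 392 per vehicle array and 324 to 381 per PA array, and none of them was called by limma.

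A gene was called higher or lower at an adjusted p under 0.05 in limma (moderated test on log2 signal, Benjamini-Hochberg adjustment over all 18769 probe sets). By this rule 529 probe sets were lower in PA-treated cells (2.82%) and 429 were higher (2.29%). With 1 probe set per gene, 3.61% of the 11983 genes were called lower and 2.58% were called higher. Calls were more frequent among bright genes. The genes were divided into 10 classes of equal size by mean log2 signal, and 24 of the 25 nuclear pore genes lay in classes 7 to 10, the exception being Nup160 in class 5. In classes 7 to 10, 8.39% of genes were called lower and 6.15% were called higher, and these classes were used as the reference of like brightness.

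Of the 25 nuclear pore genes, 5 were down-regulated by PA (Nup54, Nup133, mbo, Nup75 and Nup358), none was called up-regulated, and 20 did not pass the test. The down-regulated genes thus made up 20% of the members, where the rates of the members' own brightness classes give 9.01% for lower calls and 4.41% for higher calls. The changes were small, from -18.7% to -9.94% of the mean vehicle signal. The limma adjusted p of these genes lay between 0.0137 (Nup54) and 0.0405 (Nup358). Each of the calls was lost under some other settings, and with the arrays scaled in other ways fewer of them passed, as given below. In RNA from a whole culture, fewer cells of one state and less transcript per cell cannot be told apart.

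The log2 change was below 0 for 22 of the 25 genes (88%), where the members' brightness classes give 62.4%. In all 11983 genes the share below 0 was 53.9%, and it was 59.8% in classes 7 to 10. The median log2 change of the members was -0.11, compared with -0.02 over all genes and -0.03 over classes 7 to 10. Every PA array lay below every vehicle array for 15 members (60%), every PA array lay above for 1 member, and the groups overlapped for 9. Such separation was found below the vehicle arrays for 14.3% of all genes and 25.6% of genes in classes 7 to 10, and above them for 10.1% and 16.6% respectively. At the rates of the members' own classes, 26.8% would lie below and 13.2% above. With 3 against 3 arrays an exact two-sided permutation test of a single gene cannot give a p under 0.1, which each of the 16 separated genes had.

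**Figure D1:**
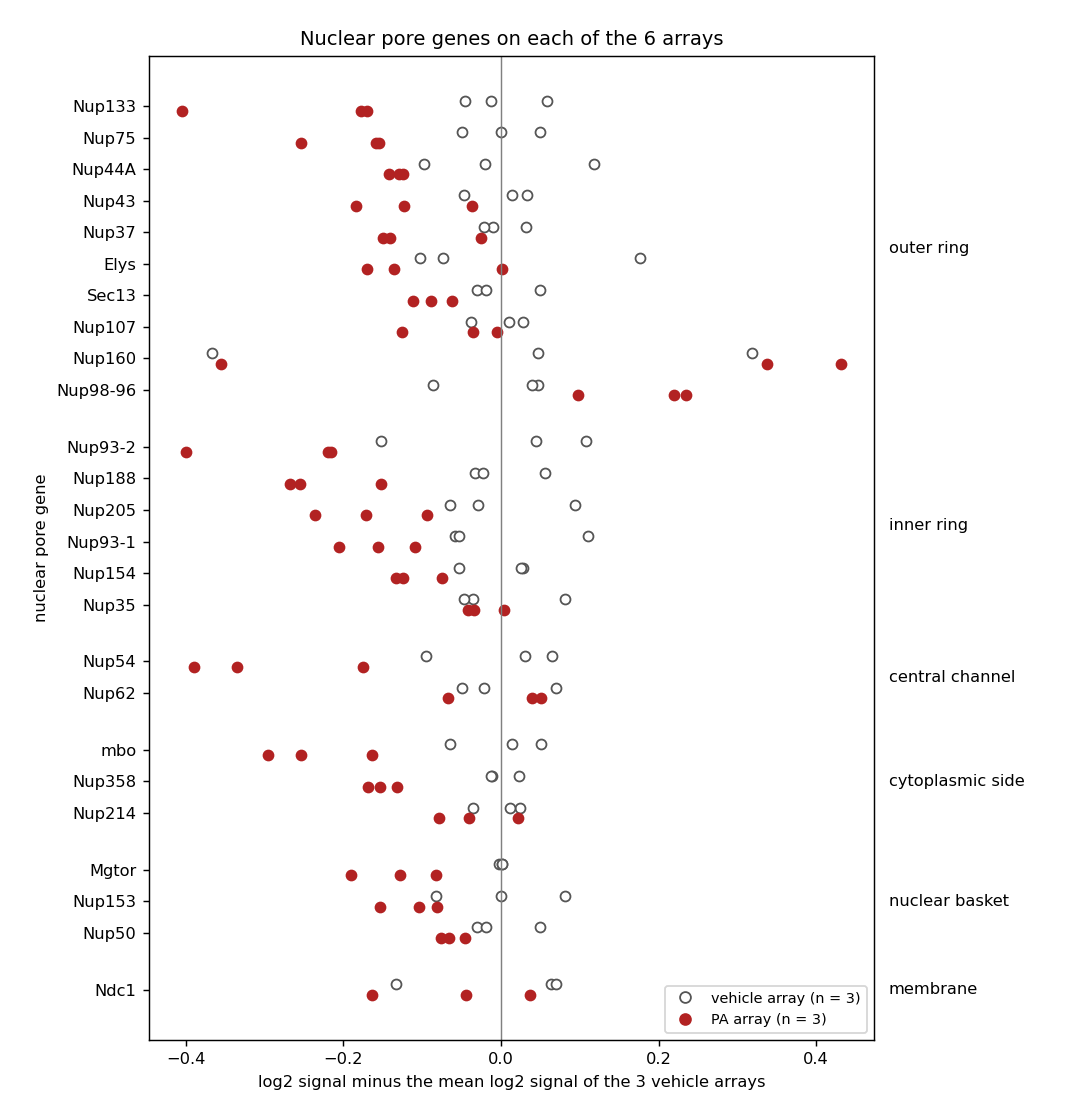
MAS5 signal of each nuclear pore gene on each array, as log2 signal minus the gene's mean log2 signal in vehicle (horizontal axis), with genes in rows by role, open circles for the 3 vehicle arrays and filled circles for the 3 PA arrays. The PA points lie to the left of all vehicle points for 15 genes and to the right of them for Nup98-96 only.

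The members were also compared array by array. Taken relative to the mean log2 signal of each gene in vehicle, the median of the members was 0.03, -0.03 and 0.0002 on vehicle arrays 1 to 3 and -0.14, -0.10 and -0.12 on PA arrays 1 to 3 on the log2 scale. This median was therefore lower on each of the 3 PA arrays than on any vehicle array. No such median was taken for genes of like brightness. The 75th percentile of all signals was also lower on each PA array (492 to 495, against 515 to 534 with vehicle). With arrays centred on the 75th percentile the members' median log2 change was -0.032. The lowest signal of a gene was on PA array 3 for 10 members, on PA array 1 for 8 and on PA array 2 for 4, and it was on vehicle array 2 for 2 members and on vehicle array 3 for 1.

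Among the proteins of the central channel, Nup54, which in vertebrates forms the channel together with Nup62 and Nup58, was down-regulated. The signal of Nup54 (probe set 1640782_at) was 1214, 1113 and 1244 on the vehicle arrays and 1053, 943 and 907 on the PA arrays. Every PA value was below every vehicle value, and the mean went from 1190 ± 68.8 to 968 ± 76.1 (SD, n = 3). The log2 change was -0.30 (SE 0.06, 95% interval -0.43 to -0.17, limma adjusted p = 0.0137), or -18.7% of the mean vehicle signal. Nup62, its channel partner, behaved differently. The Nup62 signal was 1592, 1562 and 1695 on the vehicle arrays and 1673, 1661 and 1542 on the PA arrays, so the groups overlapped, and the log2 change was 0.01 with a 95% interval of -0.10 to 0.11.

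All members of the cytoplasmic side had a log2 change below 0, and 2 of the 3 were called. The protein encoded by mbo (members only, the Drosophila Nup88) holds Nup214 at the pore and in Drosophila binds the export receptor CRM1. The mbo signal (probe set 1636705_at) was 795, 734 and 775 on the vehicle arrays and 686, 644 and 625 on the PA arrays. The groups were well separated, and mbo fell by 0.24 on the log2 scale (SE 0.06, 95% interval -0.36 to -0.11, limma adjusted p = 0.0282). Nup358 is the large filament protein that in vertebrates binds RanGAP. The signal of Nup358 (probe set 1641075_at) was 1847, 1891 and 1845 on the vehicle arrays and 1674, 1699 and 1656 on the PA arrays. The spread within its groups was small (1861 ± 26.1 and 1676 ± 21.6, SD, n = 3), so that a change of -9.94% was called (log2 change -0.15, SE 0.04, limma adjusted p = 0.0405). Nup214, the partner of mbo, overlapped between the groups, at 871 ± 18.8 in vehicle and 852 ± 30.1 in PA (SD, n = 3, log2 change -0.03, limma adjusted p = 0.837).

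The outer ring contributed 10 members, of which 2 were down-regulated. Their median log2 change was -0.10, 8 of the 10 were below 0, and every PA array lay below every vehicle array for 5. Nup133 is the stem protein by which the Y complex joins its neighbour. Its signal (probe set 1634696_at) was 1023, 951 and 973 on the vehicle arrays and 742, 873 and 868 on the PA arrays. PA array 1 was the lowest by far, but the other PA arrays were also below all vehicle arrays, and the log2 change was -0.25 (SE 0.06, 95% interval -0.39 to -0.11, limma adjusted p = 0.0386). Without PA array 1 the log2 change of Nup133 was -0.17 (limma adjusted p = 0.127). Its call was lost whichever array was left out, with limma adjusted p of 0.052 to 0.14. Nup75, the Drosophila counterpart of vertebrate Nup85 in an arm of the Y, had signals of 2133, 1991 and 2061 on the vehicle arrays and 1728, 1852 and 1846 on the PA arrays (probe set 1636645_at). These values did not overlap either, and the log2 change was -0.19 (SE 0.04, limma adjusted p = 0.0246).

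The other outer ring members did not pass the test. Nup44A, the Drosophila Seh1, had a log2 change of -0.13 (limma adjusted p = 0.196), and its probe set carries the suffix by which the maker marks probes shared between transcripts. Sec13, which is also part of the COPII coat of secretory vesicles, had a log2 change of -0.09 (limma adjusted p = 0.251), with vehicle signals of 3100, 2932 and 2954 and PA signals of 2770, 2868 and 2815. For both genes every PA array was below every vehicle array. This was also the case for Nup37, at -0.11, but not for Nup43, at -0.11, for Elys, which in vertebrates binds chromatin and starts pore assembly after mitosis, at -0.10, or for Nup107, at -0.06. Nup37 and Nup358 are next to each other among protein-coding genes in the annotation, without overlap of their gene models. The members furthest above 0 in log2 change were also in this group, Nup98-96 and Nup160.

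Nup98-96 stood apart from the other 24 members. The transcript encodes a precursor that cleaves itself into Nup98, a repeat protein of the channel that also binds chromatin, and Nup96, a Y complex protein, and the array does not measure these separately. Its signal (probe set 1632194_at) was 873, 868 and 796 on the vehicle arrays and 994, 984 and 904 on the PA arrays. All PA values were above all vehicle values, the only case of this among the members, and the mean went from 845 ± 43.3 to 960 ± 49.4 (SD, n = 3). The log2 change was 0.18 (SE 0.06, 95% interval 0.06 to 0.31), but it did not pass the test (limma adjusted p = 0.0875). Against the median change of its brightness class, -0.07, it was higher by 0.25. With the arrays centred on the 75th percentile, quantile normalized or normalized by cyclic loess, Nup98-96 was called higher, with limma adjusted p of 0.0108, 0.0310 and 0.0384, and with arrays centred on the median the adjusted p was 0.668.

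For Nup160, another Y complex protein, the array gave little information. Its signals were 61.1, 38.0 and 50.6 on the vehicle arrays and 38.3, 66.1 and 61.9 on the PA arrays, a coefficient of variation of 23.2% and 27.0%. The groups overlapped, and the 95% interval of the log2 change, -0.52 to 0.79, was wider than the range of changes of all the other members together. A change of the size found for Nup54 was therefore not detectable in Nup160 with 3 arrays per group. Of the 27 genes, 12 have a gene model that overlaps another in the annotation, among them Nup160 (with RfC38), Nup54 (CG43204), Nup75 (Naus) and Nup93-2 (CG14860).

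**Figure D2:**
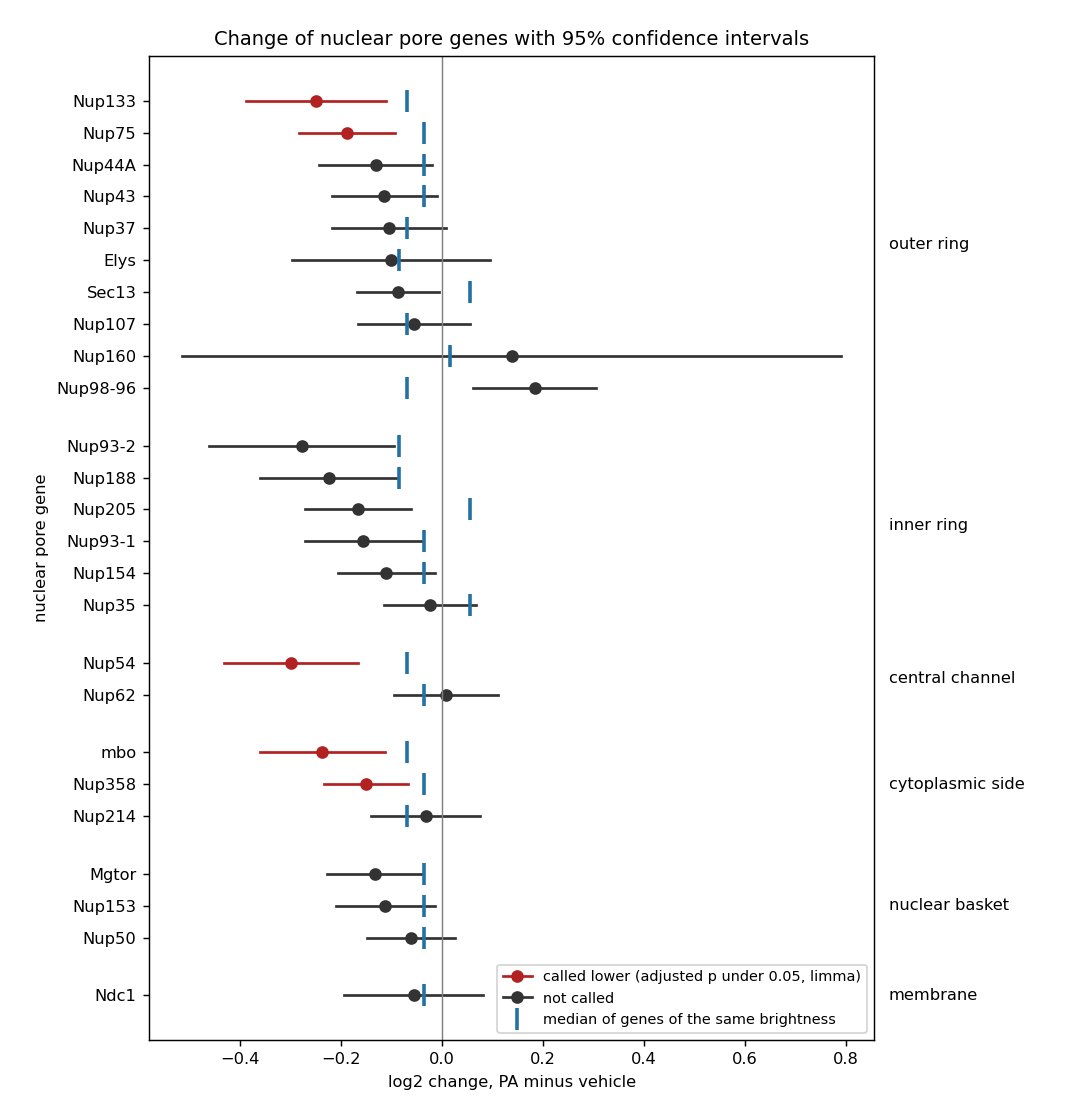
Log2 change in signal of each nuclear pore gene (PA minus vehicle, horizontal axis) with its 95% interval, in rows by role, red for the genes called lower by limma and black for the others, with a blue bar at the median of the gene's brightness class. The intervals of the 5 called genes and of some others lie below 0, that of Nup98-96 (0.06 to 0.31) lies above 0, and that of Nup160 (-0.52 to 0.79) is the widest.

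In the inner ring, all 6 members had a log2 change below 0 with a median of -0.16, although no member was called. The Nup93 proteins anchor the channel repeat proteins to the scaffold. Nup93-2 had signals of 417, 363 and 436 on the vehicle arrays and 347, 348 and 306 on the PA arrays. The log2 change was -0.28, but vehicle array 2 lay close to the PA arrays (SE 0.09, limma adjusted p = 0.0849). Without that array the log2 change was -0.35 with a limma adjusted p of 0.0488. Leaving out any other single array gave no call for Nup93-2, with limma adjusted p of 0.118 to 0.263. Nup93-1, its paralogue, changed by -0.16 (limma adjusted p = 0.126), at 1272 ± 86.1 in vehicle and 1139 ± 38.2 in PA (SD, n = 3).

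The large scaffold proteins Nup188 and Nup205, which are related to each other, had changes of like size. For Nup188 the signals were 531, 500 and 503 on the vehicle arrays and 428, 460 and 425 on the PA arrays (log2 change -0.22, limma adjusted p = 0.0615). For Nup205 they were 3192, 2929 and 2858 on the vehicle arrays and 2803, 2655 and 2538 on the PA arrays (log2 change -0.17, limma adjusted p = 0.0729). In each case every PA array was below every vehicle array, by a margin that in Nup205 was small beside the spread of the vehicle arrays. Nup154, the counterpart of vertebrate Nup155, was separated as well, at 1353 ± 42.5 in vehicle and 1253 ± 27.4 in PA (SD, n = 3, log2 change -0.11, limma adjusted p = 0.208). Nup35 was the exception in this ring, with overlapping groups and a log2 change of -0.02.

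None of the basket and membrane members was called. Megator, the Drosophila counterpart of vertebrate Tpr and the main filament of the basket, had signals of 1357, 1361 and 1361 on the vehicle arrays and 1192, 1284 and 1244 on the PA arrays. The vehicle arrays were almost identical and all PA arrays were below them (log2 change -0.13, SE 0.04, limma adjusted p = 0.115). Nup153, which in Drosophila takes part with Megator in the binding of chromatin, had a log2 change of -0.11 (limma adjusted p = 0.214), with PA array 1 at 2189 and vehicle array 3 at 2187. For Nup50, a cofactor of importins, the change was -0.06 (limma adjusted p = 0.511). Ndc1, the only membrane protein measured, had overlapping groups and a log2 change of -0.06 (limma adjusted p = 0.751).

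The PA arrays had a lower 75th percentile and a higher 99th percentile than the vehicle arrays. In the same way, genes of different brightness shifted differently, and the cause was not tested. The median log2 change was -0.09 in class 7, -0.07 in class 8, -0.04 in class 9 and 0.05 in class 10. The members lay mostly in classes with medians below 0, with 3, 7, 11 and 3 members in classes 7, 8, 9 and 10. The median of their changes was still below 0 after the median of each gene's own class was subtracted, at -0.08, and 20 of the 25 members were below the median of their class. This was not particular to the pore. The same measure was -0.07 for importins and exportins, -0.07 for mRNA export, -0.05 for the Ran cycle and -0.03 for the nuclear envelope and lamina, lists described below. With 20 classes instead of 10 the values of the pore were -0.08 and 20 members. Nup54 was 0.23 below its class on the log2 scale and Nup205 0.22 below, whereas Nup107, Nup214, Nup62 and Nup160 were above theirs, in addition to Nup98-96. With 20 classes the difference from the class median was -0.24 for Nup54 and -0.18 for Nup205.

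**Figure D3:**
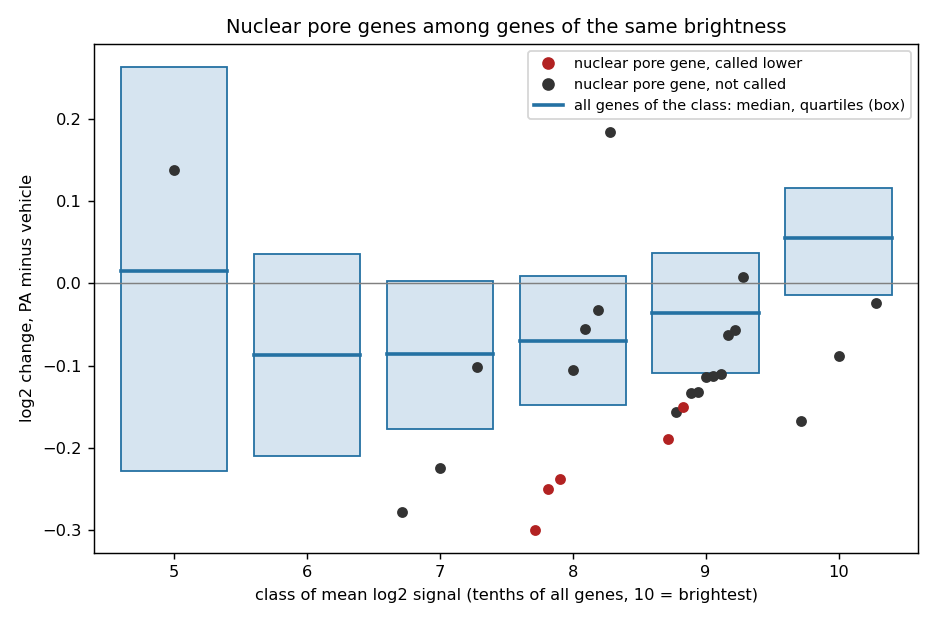
Log2 change (PA minus vehicle, vertical axis) of the 25 nuclear pore genes (points, red where called lower) by brightness class (horizontal axis, class 10 brightest), with the median (line) and quartiles (box) of all genes in classes 5 to 10. The class medians go from below 0 in classes 7 to 9 to 0.05 in class 10, and 20 of the 25 members lie below the median of their class.

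The number of members called depended on how the arrays were scaled. It was 5 on the signals as deposited, 2 with each array centred on its median (Nup54 and Nup133), and 1 after centring on the 75th percentile (Nup54), after quantile normalization (Nup75) or after cyclic loess (Nup54). The calls over all probe sets moved as well. Lower calls were 55.2% of all calls as deposited, 85.8% after centring on the median and 17.6% after centring on the 75th percentile. Without a trend of the variance on signal no member was called. Of 18 other limma settings, 5 could not move the median of the members relative to that of all probe sets, since they shift all genes of an array alike or alter only the variances. In the other 13 settings the difference of the medians was -0.123 to -0.079 on the log2 scale. Its reference was all probe sets, and under these settings no difference from genes of like brightness was taken. With the filters on dim probe sets the members' median stayed at -0.11 and only the reference median moved. Over all 18 settings, 17 to 24 members were below 0.

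Leaving out an array also changed the calls. Without vehicle array 1, vehicle array 3, PA array 2 or PA array 3 no member was called, without vehicle array 2 there were 4 (Nup54, mbo, Nup75 and Nup93-2) and without PA array 1 there were 2 (Nup54 and mbo). The adjusted p of Nup54 lay between 0.00682 and 0.0700 in these fits, whereas the median of the members lay between -0.13 and -0.10 and 21 to 24 members were below 0. Of the 18 settings, Nup54 was called lower in 11, mbo and Nup75 in 8 each, Nup133 in 6 and Nup358 in 5. The methods' t-test (that of the study, on the same log2 values) gave an unadjusted p under 0.05 for 10 members in the lower direction and 1 in the higher direction. The shares over all genes were 9.67% and 7.12%. Shares in classes 7 to 10 were not taken for this test, so these counts have no reference of like brightness. No member passed when the fold limits of the study were added or after Benjamini-Hochberg adjustment.

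**Figure D4:**
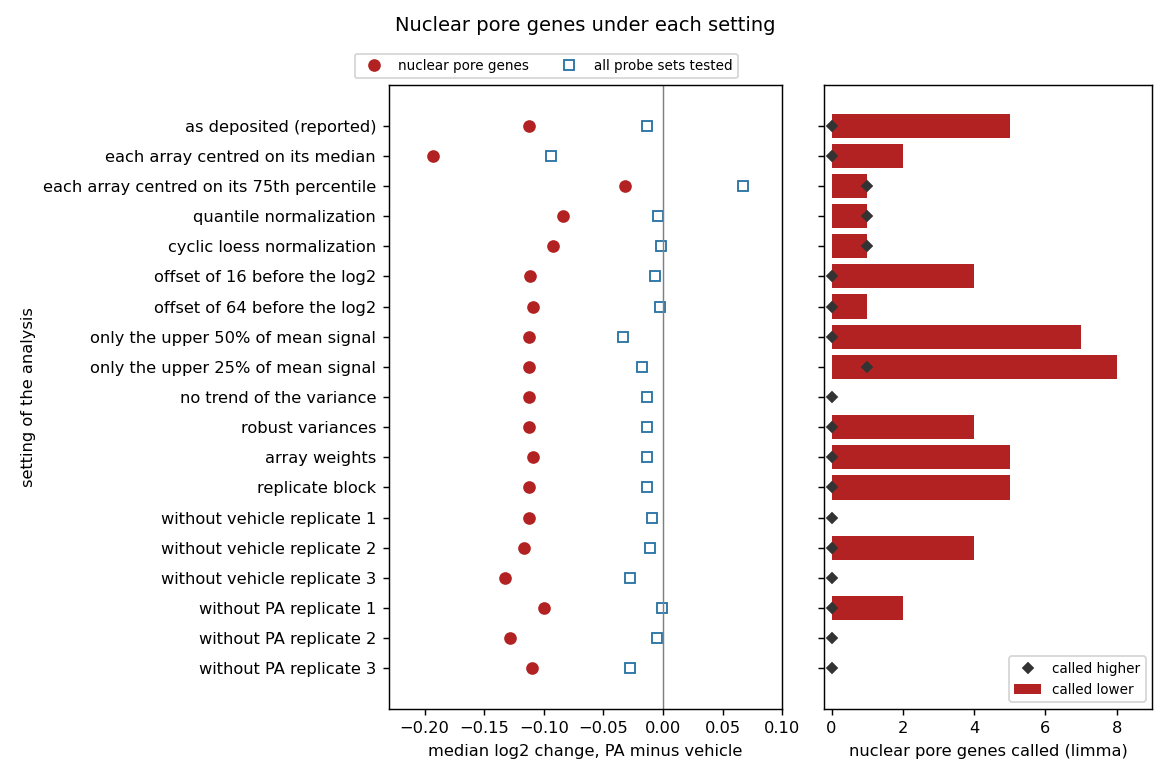
Median log2 change (PA minus vehicle) of the nuclear pore genes and of all probe sets tested (left panel, horizontal axis) and the number of nuclear pore genes called by limma (right panel, bars for lower and diamonds for higher calls) under each setting in rows. The lower calls range from 0 to 8, and the members' median minus that of all probe sets is -0.123 to -0.079 in the 13 rows whose setting can move it.

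Genes that work with the pore were examined by function, and most of them lay in classes 7 to 10. In these classes together 8.39% of genes were called lower and the median change was -0.03 (3.61% and -0.02 over all genes). Class 10, which held Rcc1, kuk and Ote, differed from this, with 3.59% called lower, 17.4% called higher and a median change of 0.05. The change was below the median of the gene's own brightness class for 14 of 17 importins and exportins, 4 of 5 genes of the Ran cycle, 13 of 15 of mRNA export and 4 of 8 of the nuclear envelope and lamina. After each gene's own class median was subtracted, the median changes of these 4 lists were -0.07, -0.05, -0.07 and -0.03. Importins and exportins are the receptors that carry cargo through the channel. Of 19 such genes 17 were measured, and none was called, although all 17 had log2 changes below 0, with a median of -0.09, and every PA array was below every vehicle array for 7, beside 25.6% of genes in classes 7 to 10. The lowest of the log2 changes, -0.26, was that of alphaKap4, which had a mean vehicle signal of 4.72 and a 95% interval of -2.19 to 1.67, and the other genes lay between -0.20 and -0.01. The genes of this list with the smallest p were ebo, the Drosophila exportin 6, with a log2 change of -0.17 (limma adjusted p = 0.0713), Arts, at -0.13 (limma adjusted p = 0.159), and Karybeta3, at -0.09 (limma adjusted p = 0.164). Quantile normalization gave 2 lower calls in this list.

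The Ran cycle supplies the direction of transport, with RanGTP formed on chromatin by Rcc1 and hydrolysed in the cytoplasm with the help of RanGAP. Of its 5 genes 1 was called, Rcc1, with signals of 3379, 3563 and 3345 on the vehicle arrays and 3116, 3125 and 2966 on the PA arrays. These groups did not overlap, and Rcc1 fell by 0.16 on the log2 scale (limma adjusted p = 0.0331). Its call was lost when any array except vehicle array 3 was left out, with adjusted p of 0.0611 to 0.143, and also with arrays centred on the median or the 75th percentile. RanGAP had a log2 change of -0.11 (limma adjusted p = 0.183) and Ntf-2, the carrier of Ran into the nucleus, 0.03 (limma adjusted p = 0.796). The median of the 5 genes was 0.001, and it was -0.05 after the median of each gene's own class was subtracted.

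For mRNA export, 15 of 16 genes were measured and 3 were down-regulated, with a median log2 change of -0.10. PCID2, a subunit of the TREX-2 complex that links transcription to the pore, had signals of 1167, 1155 and 1190 on the vehicle arrays and 955, 976 and 949 on the PA arrays. This was a clear separation, and PCID2 fell by 0.29 on the log2 scale (limma adjusted p = 0.00252). PCID2 was also called under each of the 4 other scalings and whichever single array was left out, but not without a trend of the variance (limma adjusted p = 0.332). The THO complex subunits tex and thoc5 package new transcripts for export. Signals of tex were 760, 664 and 772 on the vehicle arrays and 585, 590 and 635 on the PA arrays (log2 change -0.28, limma adjusted p = 0.0281). Those of thoc5 were 2047, 2065 and 2088 on the vehicle arrays and 1828, 1875 and 1901 on the PA arrays (log2 change -0.15, limma adjusted p = 0.0451). With the arrays quantile normalized, normalized by cyclic loess or centred on the 75th percentile, neither was called. The same held without a trend of the variance. With arrays centred on the median tex was called (limma adjusted p = 0.0434) and thoc5 was not (0.146). An offset of 16 or 64 removed the call of tex only (0.0593 and 0.0797). Robust variances or the replicate block removed that of thoc5 only (0.0556 and 0.0665). The call of tex was also lost when vehicle array 1 or 3 or PA array 1 or 2 was left out (adjusted p of 0.0977 to 0.111), and that of thoc5 was lost whichever array was left out (adjusted p of 0.0817 to 0.146).

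Of 10 genes of the nuclear envelope and lamina 8 were measured and 2 were down-regulated, kuk and Ote, with a median of -0.05. The protein of kuk (kugelkern) is a lamina component that shapes the nucleus of the early embryo. Its signals were 8029, 8054 and 8074 on the vehicle arrays and 7024, 7074 and 7169 on the PA arrays with little spread in either group, and kuk fell by 0.18 on the log2 scale (limma adjusted p = 0.00430). Ote (Otefin), an inner membrane protein with a LEM domain, had signals of 3588, 3619 and 3655 on the vehicle arrays and 3075, 3114 and 3218 on the PA arrays (log2 change -0.21, limma adjusted p = 0.00458). Both were called whichever single array was left out, and also after quantile normalization or cyclic loess. With arrays centred on the median or on the 75th percentile neither passed. The adjusted p was then 0.146 and 0.180 for kuk and 0.0687 and 0.104 for Ote. Neither passed without a trend of the variance (limma adjusted p = 0.462 for kuk and 0.443 for Ote). Aladin, a pore protein with a name outside the Nup series, had a log2 change of -0.13 (limma adjusted p = 0.174).

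**Figure D5:**
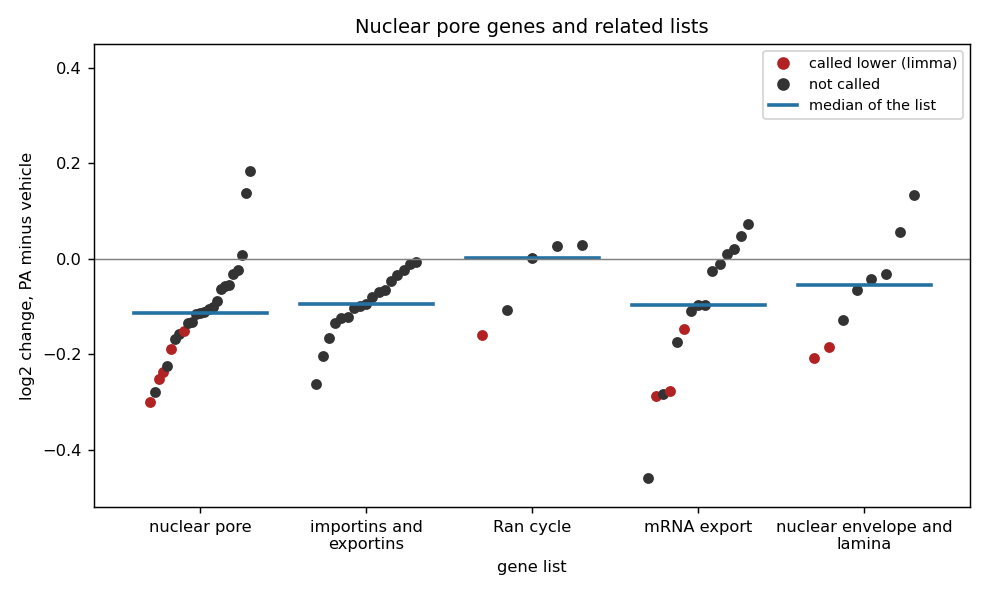
Log2 change (PA minus vehicle, vertical axis) of every measured gene of the nuclear pore and of 4 related lists (horizontal axis), each point 1 gene, red where called lower by limma, with the median of the list as a line. Lower calls numbered 5 in the pore, 0 in importins and exportins, 1 in the Ran cycle, 3 in mRNA export and 2 in the nuclear envelope and lamina.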

How the data were processed

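S2 cells treated with PA (0.1 mM, 2 h) or vehicle were compared, 3 arrays each. The deposited values are MAS5 signal intensities on a linear scale, made by the authors from the scans with the MAS5 algorithm (version not given in the sources used here), and checks showed each array to have a mean of 500 after trimming 2% at each end. Background, mismatch correction and summary over probes were therefore those of MAS5, which leaves dim probe sets noisy, and array number rather than read depth limits the precision.

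Groups were taken from the labels. The values were used as log2 signal, without offset or further scaling, and 183 control probe sets were left out. The remaining 18769 were fitted with limma 3.58.1 in R 4.3.3 (lmFit, then eBayes with a trend of the variance on mean signal), with Benjamini-Hochberg adjustment. Probe sets were named from the platform annotation: of the 18769 tested, 13647 had 1 gene, 402 several and 4720 none, and 13544 were updated to current symbols of the RefSeq annotation. A gene was represented by its brightest probe set with exactly 1 gene. Means of different probe sets were not used to rank genes by abundance.

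All pore genes with a probe set were described, and from each of the other lists of pathway genes the 3 genes with the smallest p were named. The members, lists and tests were chosen with earlier results of these data known. No list was tested for enrichment. The alternatives tried were median and 75th percentile centring, cyclic loess or quantile normalization, an offset of 16 or 64, filters on dim probe sets, other variance models, a replicate block, the methods' t-test and leaving out each array. The script was tested on simulated data. Sequences were not used here. Gene positions in the RefSeq annotation served only to find neighbouring genes and overlapping gene models.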

Additional observations from a re-analysis of the deposited data

How the results depend on the processing

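The scaling of the arrays and the variance model set the number of calls, and the cause of these changes was not tested. Over all probe sets the higher and lower calls were 429 and 529 as reported, 58 and 350 with median centring, 988 and 211 with 75th percentile centring, 238 and 266 with quantile normalization, 248 and 269 with cyclic loess, 270 and 383 with an offset of 16, 225 and 314 with an offset of 64, 666 and 702 in the upper 25% of mean signal, and 7 and 0 without a trend of the variance. The methods' t-test gave 29 and 9 after Benjamini-Hochberg adjustment, 1234 and 1460 at an unadjusted p under 0.05, and 354 and 231 with the fold limits added. Leaving out 1 array gave 196 to 402 higher and 262 to 412 lower calls.

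Of the nuclear pore genes, 5 were lower and 0 higher as reported. The lower calls were 2 with median centring, 1 with 75th percentile centring, quantile normalization, cyclic loess or an offset of 64, 8 in the upper 25% of signal (of 21 members in it), and 0 without the variance trend, with the adjusted methods' t-test or with fold limits. They were 10 with the unadjusted methods' t-test and 0 to 4 without 1 array. Higher calls were 1 (Nup98-96) with 75th percentile centring, quantile normalization, cyclic loess, the upper 25% of signal and the unadjusted methods' t-test. The members' median was -0.19 with median centring, -0.032 with 75th percentile centring and -0.084 with quantile normalization, and between -0.13 and -0.10 without 1 array.

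Some changes near 0 took the other sign. With 75th percentile centring these were Ndc1 (0.023), Nup107 (0.025), Nup214 (0.048), Nup35 (0.056) and Nup50 (0.018). With quantile normalization they were Nup107 (0.015), Nup214 (0.036) and Ntf-2 (-0.0089), with cyclic loess Nup214 (0.022), and with median centring Nup62 (-0.073) and Ntf-2 (-0.051). Without single arrays the ranges that crossed 0 were those of Nup160 (-0.045 to 0.38), Nup35 (-0.047 to 0.017) and Nup62 (-0.016 to 0.045). The 5 called genes kept their call in 43 of 105 values under alternatives.

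The numbers 1 to 3 in the labels were not shown to pair the arrays: residuals of same-numbered arrays correlated at -0.0016 to 0.019. A fit with the replicate block gave 5 lower members, with Nup205 in place of Nup358, and 386 higher and 557 lower calls overall.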
